A study of Mus musculus with 2 samples.

Results

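The genes of the synaptic vesicle and of its release and recycling machinery were followed in the cerebral cortex of mice with a conditional double knockout of presenilin (PS cDKO) and of controls, all 6 months old. The members were chosen by gene symbol and function from a list of 44 genes. Of these, 36 had at least 1 probe set that the platform annotation paired with that symbol alone, 51 probe sets in all, among 8251 genes so annotated and 12418 probe sets on the array. No values for Syn1, Syngr3, Sv2a, Sv2b, Napg, Rims1, Amph and Synj1 were analysed here. Total RNA was measured on 1 array for PS cDKO and 1 array for control, and whether either held RNA of 1 animal or of a pool is not stated in the labels. The labels give neither the alleles nor the Cre line; as background, the mouse line known by this name deletes presenilin in excitatory neurons of the postnatal forebrain, so that glia and most inhibitory neurons keep the floxed gene.

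At a nerve terminal, vesicles loaded with transmitter are held by synapsins, tethered and primed at the active zone by large scaffolds, and fused with the plasma membrane by SNARE proteins. Synaptotagmins sense the calcium that triggers fusion, complexins and Munc18 proteins govern SNARE assembly, and the ATPase NSF with its SNAP adaptors takes spent SNARE complexes apart. Dynamin, amphiphysin-type proteins, endophilins and synaptojanins then retrieve the membrane. Many of these families have a member used mainly by neurons and a relative used by most cells for general membrane traffic.

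A signal below is a deposited linear intensity after a common scaling of the arrays (arbitrary units), and every log2 ratio is PS cDKO over control. A signal below a floor of 232 was treated as not measured; a probe set below the floor on 1 array gives a bound. Where several probe sets of a gene exceeded the floor in both genotypes, their log2 ratios were averaged. With 1 array per genotype no difference can be set against the spread between mice, no p-value is given, and members are counted by size. The size used is a log2 ratio of -0.32 or less, which is 20% or more below control, or of 0.32 or more, which is 25% or more above control. For scale, the SD of 1 probe set's log2 ratio, estimated over 749 genes with 2 or more probe sets above the floor, was 0.21. The spread of the log2 ratio from gene to gene, as a robust SD, was of similar size at 0.23. Where a gene had a second reading on the same 2 arrays, it repeated the first only weakly across genes (r = 0.24, from each gene's 2 brightest). A value that rests on 1 probe set is therefore uncertain even for the RNA measured here. The check of a targeted gene was not possible, since Psen2 gave signals of 97.1 in PS cDKO and 105 in control, both below the floor. Because the tissue is bulk cortex, fewer nerve cells and less RNA per cell cannot be told apart.

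Of the 36 genes, 31 were measured, 30 with a signal over the floor in both genotypes and 1 with a bound, and 23 of the 31 had a log2 ratio below 0, against 48.1% of all 5885 measured genes. Members at least 20% lower in PS cDKO numbered 8, namely Sncb, Stxbp2, Pclo, Stx1a, Dnm1, Cplx1, Snap25 and Syp; 8.36% of all measured genes passed the same size. Only Rab3d was at least 25% higher, a size that 8.05% of all measured genes passed. At 1.5-fold, Sncb alone was lower and no member was higher, where 0.816% and 1.12% of all genes were. The median log2 ratio was -0.13 over the members and 0.01 over all measured genes. Differences were thus modest: the members ranged between -0.59 (Sncb) and 0.42 (Rab3d).

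**Figure D1:**
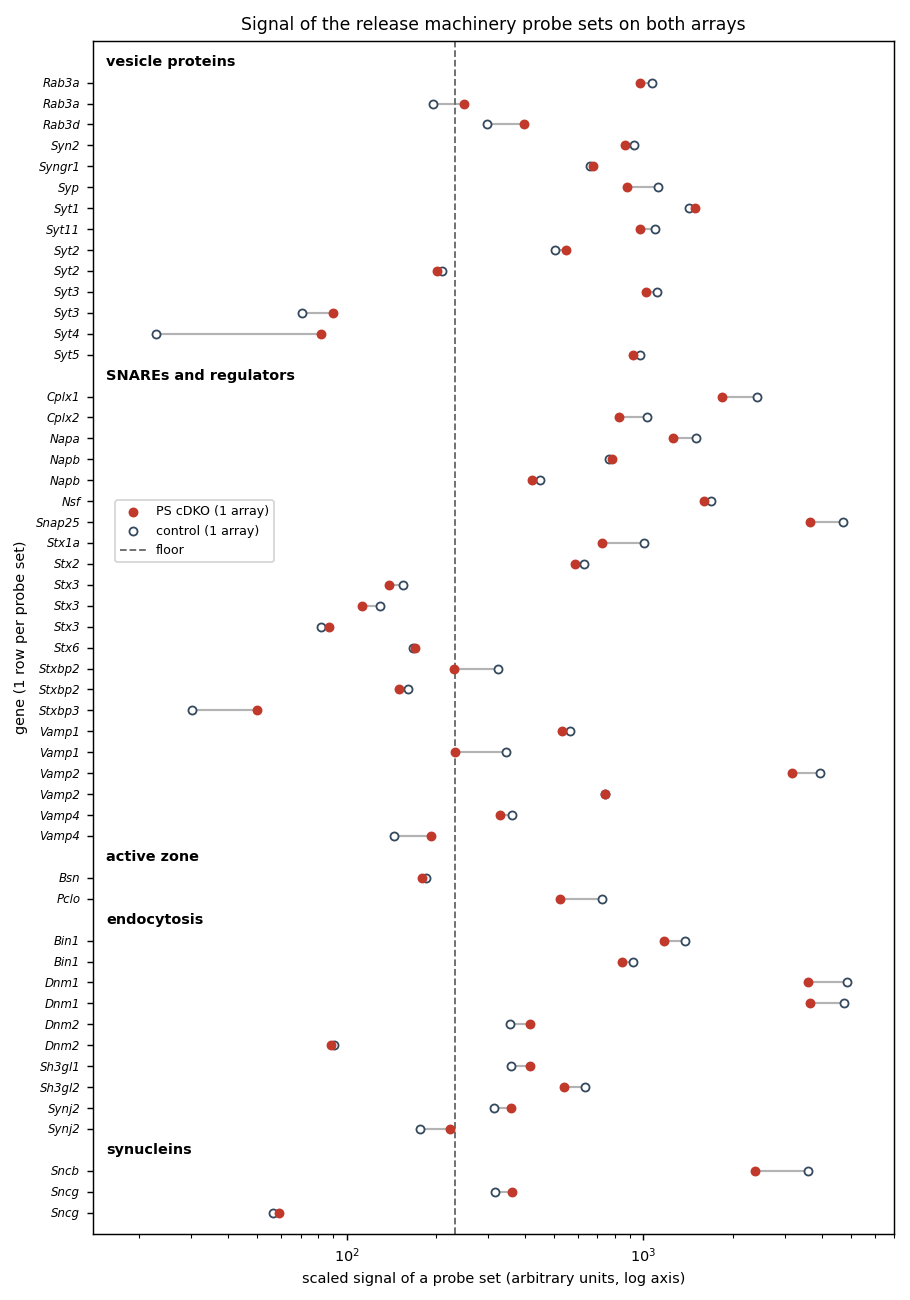
Scaled signal (arbitrary units, log axis) of each of the 51 probe sets on the PS cDKO array (filled) and the control array (open), grouped by class, with the floor dashed. Sncb, Snap25, Dnm1, Cplx1 and the brighter Vamp2 probe set lie to the left in PS cDKO, whereas the points of Syt1, Syngr1 and Napb nearly coincide.

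Upstream sequences of 4 members are shown because these genes, with unlike log2 ratios, all carry letters of the cAMP response element (CRE), the site bound by the activity-regulated factor CREB. Each is the 250 bases before the RefSeq start in GRCm38.p6, 5′ to 3′ on the gene's strand, with TGACG, its reverse complement or the palindrome that joins them in capitals. The genes were picked after their values were seen.
Sncb, chr13:54766596-54766845, minus strand: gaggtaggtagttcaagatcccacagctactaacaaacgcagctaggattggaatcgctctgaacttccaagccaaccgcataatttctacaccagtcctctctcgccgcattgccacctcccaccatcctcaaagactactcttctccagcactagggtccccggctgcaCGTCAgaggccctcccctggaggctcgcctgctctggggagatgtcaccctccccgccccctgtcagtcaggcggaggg
Stx1a, chr5:135023232-135023481, plus strand: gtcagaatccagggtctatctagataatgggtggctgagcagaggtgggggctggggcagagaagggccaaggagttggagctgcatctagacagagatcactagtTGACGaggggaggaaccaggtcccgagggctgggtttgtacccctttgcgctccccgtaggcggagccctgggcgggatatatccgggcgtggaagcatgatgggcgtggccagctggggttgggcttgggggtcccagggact
Sh3gl2, chr4:85205206-85205455, plus strand: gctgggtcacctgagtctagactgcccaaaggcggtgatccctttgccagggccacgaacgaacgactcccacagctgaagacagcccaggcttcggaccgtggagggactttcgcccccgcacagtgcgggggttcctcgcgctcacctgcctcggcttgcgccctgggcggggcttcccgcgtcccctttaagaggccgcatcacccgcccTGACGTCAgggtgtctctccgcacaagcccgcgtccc
Rab3d, chr9:21918184-21918433, minus strand: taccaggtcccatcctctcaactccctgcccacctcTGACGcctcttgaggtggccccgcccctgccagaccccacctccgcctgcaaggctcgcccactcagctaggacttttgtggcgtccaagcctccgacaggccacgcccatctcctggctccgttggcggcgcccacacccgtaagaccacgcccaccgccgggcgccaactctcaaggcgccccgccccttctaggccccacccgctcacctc
The capitals begin 79 bases before the start in Sncb, 144 in Stx1a, 37 in Sh3gl2 and 214 in Rab3d. RefSeq promoters were found for 27 of the 31 measured members, with 35 starts in all. TGACG or CGTCA stood in 10 of these 35 promoters (28.6%), each of another gene, and in 17.8% of all 32851 promoters. All promoters, here and below, were not restricted to measured genes, so they are not a matched background for the members. Of the 7 members with a promoter and a log2 ratio of -0.32 or less, 3 held it. The full palindrome occurred in Sh3gl2 alone among members and in 1.55% of all promoters, and a full palindrome also counts as TGACG. The GC box (GGGCGG or CCGCCC, the letters bound by Sp1) occurred in 20 of the 35 promoters (57.1%) and in 32.7% of all promoters. The genes shown include the lowest member (Sncb), the highest (Rab3d) and one between them (Sh3gl2, -0.23). They were picked for holding CRE letters, so their values do not show how the letters relate to the log2 ratio. A match is a match of letters only.

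Among vesicle proteins, 10 of 11 genes with a probe set were measured, with a median log2 ratio of -0.09 and values between -0.34 and 0.42. Synaptophysin (Syp), an abundant tetraspan protein of the vesicle membrane, gave a signal of 882 in PS cDKO and 1118 in control, a log2 ratio of -0.34. It was the only vesicle protein at least 20% lower. Rab3d, a Rab3 GTPase best known from secretory granules of gland cells, gave 397 in PS cDKO and 297 in control, 1.34-fold higher (log2 ratio 0.42). Both Rab3d signals were close to the floor, and with a floor at the 60th percentile, 403, Rab3d had no value.

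The other vesicle proteins differed by less than the SD of a probe set. Rab3a, the main Rab3 GTPase of synaptic vesicles, gave 971 in PS cDKO and 1067 in control (log2 ratio -0.14); a further Rab3a probe set gave 249 in PS cDKO and 196 in control, below the floor in control, so it entered no mean. With that probe set included, at the lower floor and with no floor, the Rab3a value turned to 0.10. Syn2, a synapsin that ties vesicles to each other and to actin, gave 867 in PS cDKO and 926 in control (-0.10). Syngr1, a relative of synaptophysin, gave 677 in PS cDKO and 661 in control (0.03).

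The synaptotagmins as a family stood near 0, in contrast to Syp. Syt1, the calcium sensor of fast release in the forebrain, gave 1490 in PS cDKO and 1427 in control, a log2 ratio of 0.06. Syt2, the fast sensor that prevails in hindbrain and in some interneurons, gave 549 in PS cDKO and 505 in control (0.12). Syt3, a high-affinity calcium sensor, gave 1019 in PS cDKO and 1112 in control (-0.13), and Syt5 gave 920 in PS cDKO and 972 in control (-0.08). Syt11, a synaptotagmin that does not bind calcium, had the lowest value of the family at 970 in PS cDKO and 1094 in control (-0.17). Syt4, another atypical synaptotagmin, gave 82.3 in PS cDKO and 22.8 in control, below the floor on both arrays. So were further probe sets of Syt2 (201 in PS cDKO and 210 in control) and Syt3 (90.0 in PS cDKO and 70.8 in control). Of the 5 measured synaptotagmins 3 were below 0 and none reached a log2 ratio of -0.32 or 0.32.

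Among the SNAREs and their regulators, all 12 measured genes had a log2 ratio below 0, with a median of -0.21. At least 20% lower were 4 of them: Stxbp2, Stx1a, Cplx1 and Snap25. Over all measured genes 48.1% were below 0 and 8.36% at least 20% lower. The 12 of 12 held under the other scalings (deposited intensities, quantile and lowess) and was 11 of 12 when the brightest probe set stood for a gene, 10 of 11 without suffixed probe sets, 12 of 14 with the lower floor and 12 of 15 with no floor.

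The neuronal plasma membrane SNAREs were both lower. Stx1a (syntaxin-1A), which with SNAP-25 forms the target side of the fusion complex, gave 725 in PS cDKO and 1002 in control, 1.38-fold lower (log2 ratio -0.47). It was number 135 from the lowest among the 5414 genes over the floor in both genotypes. Snap25, its partner, gave 3632 in PS cDKO and 4705 in control, 1.30-fold lower (-0.37). After quantile and lowess scaling the Snap25 value was -0.26 and -0.21. Stx2, a syntaxin of many cell types, gave 587 in PS cDKO and 631 in control (-0.10). Stx3, used at ribbon synapses and in epithelia, was below the floor in all 3 probe sets, with signals between 87.4 and 139 in PS cDKO and between 82.0 and 155 in control. Stx6, a syntaxin of the trans-Golgi network, was below it too, at 170 in PS cDKO and 167 in control.

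The vesicle SNAREs gave less uniform readings. For Vamp2 (synaptobrevin-2), the vesicle SNARE of most forebrain synapses, 1 probe set gave 3155 in PS cDKO and 3938 in control, a log2 ratio of -0.32, while the other gave 745 in PS cDKO and 742 in control. The 2 probe sets thus disagreed, by 0.32, and the gene value was -0.16. Vamp1, its relative in brainstem and spinal cord and in some cortical interneurons, gave 533 in PS cDKO and 568 in control (-0.09), and a further Vamp1 probe set gave 231 in PS cDKO and 344 in control. That PS cDKO signal lay just under the floor, so the probe set was left out of the mean. With it the gene value was -0.33. Both Vamp1 probe sets are suffixed and may detect related sequences, and Vamp1 had no value without suffixed probe sets. Vamp4, a SNARE of the trans-Golgi network and endosomes, gave 328 in PS cDKO and 360 in control (-0.13), and its further probe set below the floor gave 193 in PS cDKO and 145 in control. With that probe set included the Vamp4 value turned to 0.14.

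Both complexins, small proteins that clamp and then promote SNARE-driven fusion, were lower. Cplx1, the complexin of many interneurons and of subcortical neurons, gave 1842 in PS cDKO and 2418 in control, 1.31-fold lower (log2 ratio -0.39). Cplx2, the complexin of cortical excitatory neurons, gave 829 in PS cDKO and 1026 in control (-0.31), just short of the size counted. The 2 values differ by less than the SD of a probe set. Both stayed below 0 under the 3 other scalings. The settings of floor and probe set choice could not move them, as each has 1 unsuffixed probe set above every floor.

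The Munc18 relatives on the array are those of general secretion. Stxbp2 (Munc18-2), known from blood cells and epithelia, gave 230 in PS cDKO and 324 in control. Its PS cDKO signal lay below the floor, so Stxbp2 was at least 1.40-fold lower, and its other probe set, at 150 in PS cDKO and 161 in control, was below the floor on both arrays. With the lower floor or no floor the mean of its probe sets was -0.30, and Stxbp2 no longer passed the size counted. Stxbp3 (Munc18c), which works in insulin-driven vesicle fusion, gave 49.9 in PS cDKO and 30.1 in control, both below the floor.

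The 3 genes of the disassembly machinery were all below 0, and none was at least 20% lower. Nsf, the ATPase that unwinds SNARE complexes, gave 1599 in PS cDKO and 1687 in control (log2 ratio -0.08). Napa (α-SNAP), its general adaptor, gave 1255 in PS cDKO and 1505 in control (-0.26). Napb (β-SNAP), its brain adaptor, had 2 probe sets with log2 ratios of 0.03 and -0.09 and a gene value of -0.03. Within this group the adaptor used by all cells thus had the lower value.

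**Figure D2:**
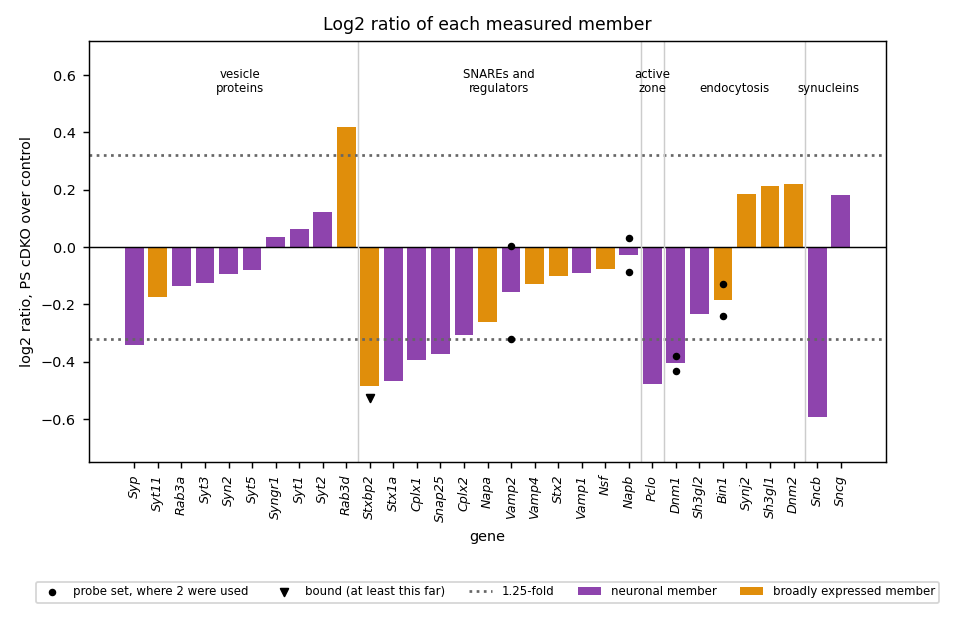
Log2 ratio (PS cDKO over control) of the 31 measured members by class, with bars for gene values, dots for the probe sets of genes where 2 were used, a triangle for the Stxbp2 bound and dotted lines at the size counted. All 12 SNAREs and regulators lie below 0, vesicle proteins straddle 0, and Sncb at -0.59 is the lowest bar.

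At the active zone, Pclo (piccolo), a giant scaffold that organises vesicles and actin at the release site, gave 522 in PS cDKO and 726 in control, 1.39-fold lower (log2 ratio -0.48). It was number 127 from the lowest of 5414 genes and stayed between -0.51 and -0.48 under the 3 other scalings. The settings of floor and probe set choice could not move it, as Pclo has 1 unsuffixed probe set above every floor. Bsn (bassoon), its partner scaffold, gave 179 in PS cDKO and 186 in control, below the floor on both arrays, so that the active zone is represented by Pclo alone.

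The endocytic genes split by family member. Dnm1, the neuronal dynamin that pinches vesicles off the membrane, had signals of 3648 and 3581 in PS cDKO and of 4743 and 4832 in control for its 2 probe sets. Both Dnm1 probe sets are annotated to the same transcript record, and their log2 ratios were -0.38 and -0.43, a gene value of -0.41. Sh3gl2 (endophilin-A1), a curvature-sensing partner of dynamin in brain, gave 540 in PS cDKO and 634 in control (-0.23). Bin1 (amphiphysin-2), which is also made by muscle and oligodendrocytes, gave 1173 and 844 in PS cDKO and 1385 and 924 in control for its 2 probe sets, log2 ratios of -0.24 and -0.13.

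Bin1, counted with the broadly expressed members, was thus below 0, whereas the other 3 broadly expressed endocytic genes were above it. Dnm2, the dynamin of all cells, gave 415 in PS cDKO and 357 in control, a log2 ratio of 0.22, and its further probe set was below the floor at 88.6 in PS cDKO and 90.5 in control. Sh3gl1 (endophilin-A2) gave 416 in PS cDKO and 359 in control (0.21). Synj2, the general synaptojanin, gave 358 in PS cDKO and 315 in control (0.19), with a further probe set below the floor at 223 in PS cDKO and 177 in control. None of the 3 reached 0.32, and the Dnm2 value rests on a suffixed probe set, which may detect related sequences. The class median was 0.0005, with 3 genes below 0 and 3 above it. It was -0.23 without suffixed probe sets, where Dnm2 had no value, and -0.18 with the 60th percentile as floor, where Synj2 had none and Dnm2 and Sh3gl1 were bounds of 0.04 and 0.05.

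The synucleins on the array were β-synuclein and γ-synuclein, small proteins of the nerve terminal. Sncb (β-synuclein) gave 2380 in PS cDKO and 3590 in control, 1.51-fold lower (log2 ratio -0.59), and was number 35 from the lowest of 5414 genes. It stayed between -0.63 and -0.47 under the 3 other scalings. The settings of floor and probe set choice could not move it, as Sncb has 1 unsuffixed probe set above every floor. Sncg (γ-synuclein), best known from peripheral and motor neurons, gave 360 in PS cDKO and 317 in control (0.18) in a suffixed probe set. Its other probe set was far below the floor, at 59.3 in PS cDKO and 56.8 in control.

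Members used mainly by neurons and members used by most cells were set side by side, a division made with earlier results of these data known. Among 20 measured neuronal members 7 were at least 20% lower and none at least 25% higher, with a median log2 ratio of -0.15. Among 11 measured broadly expressed members 1, the Stxbp2 bound, was at least 20% lower and 1, Rab3d, at least 25% higher, with a median of -0.10. The shares over all measured genes were 8.36% lower and 8.05% higher by these sizes. The summed signal was 31550 in PS cDKO and 38786 in control over 25 probe sets of neuronal members, a ratio of 0.813. Over 12 probe sets of broadly expressed members it was 8574 in PS cDKO and 9236 in control, a ratio of 0.928. Bright probe sets weigh most in such a sum. In control the 2 Dnm1 probe sets gave 4743 and 4832, Snap25 4705, the brighter Vamp2 probe set 3938 and Sncb 3590. The sums were taken under the reported scaling only.

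The contrast depended on scaling: after quantile normalization the medians were -0.11 for neuronal and -0.10 for broadly expressed members, and after the lowess fit -0.10 and -0.11, with 3 neuronal members (Sncb, Pclo and Stx1a) at least 20% lower in each. The shares of all measured genes at least 20% lower were 8.33% and 8.22% there.

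Within families the contrast went both ways. In 4 of 7 families with measured members of both kinds the neuronal members had the lower log2 ratio: dynamins (Dnm1 minus Dnm2, -0.63), Rab3 proteins (Rab3a minus Rab3d, -0.56), endophilins (Sh3gl2 minus Sh3gl1, -0.45) and syntaxins (Stx1a minus Stx2, -0.36). Synaptobrevins differed by 0.01, but by -0.39 with the 20th percentile as floor or with no floor, so that the neuronal members were then lower in 5 of 7 families, as they were with the brightest probe set of each gene. In SNAPs (Napb minus Napa, 0.23) and synaptotagmins (the mean of 4 neuronal members minus Syt11, 0.17) the neuronal members had the higher value. These families were chosen after the values were seen, and no test of the contrast is possible with 1 array per genotype.

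Log2 ratio and signal went together in part: Sncb, Snap25, Dnm1 and Cplx1 had bright probe sets, but Pclo and Stxbp2 were as low at moderate or dim signal, and the bright Syt1 and Nsf were near 0. Across the 30 members over the floor in both genotypes, the log2 ratio and the mean log2 signal correlated with r = -0.68 and rho = -0.63, a description across genes that share the same 2 arrays. Across all 5414 such genes r was -0.14. In the brightest 1354 genes 17 members were found, of which 6 were at least 20% lower, and 12.8% of all genes there were. In that range the median log2 ratio was -0.18 over members and -0.04 over all genes. The dimmest 1354 genes held 4 members, with a median of 0.18 for members and 0.03 for all genes. Rab3d, Synj2, Sncg and Vamp4 were those 4, and none was at least 20% lower. Signal and gene function cannot be told apart in these few members.

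**Figure D3:**
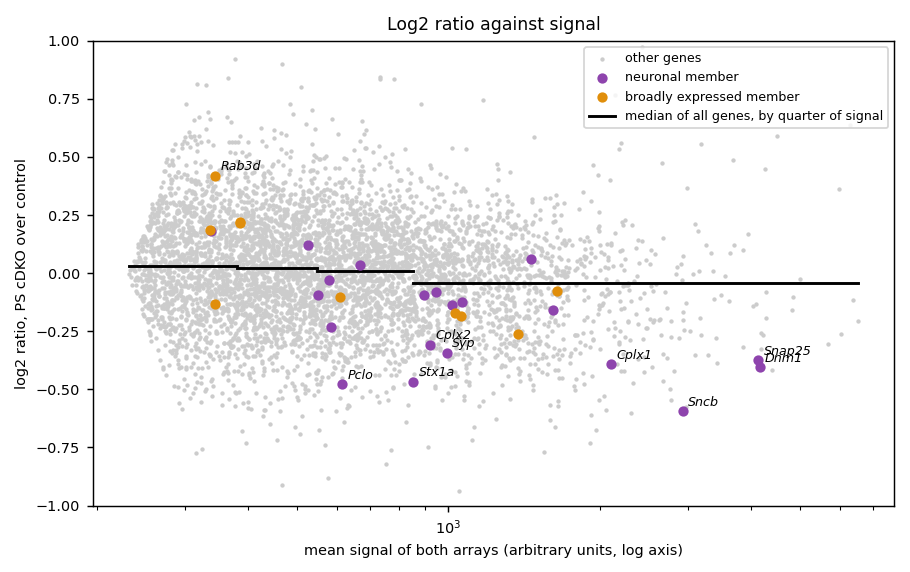
Log2 ratio (PS cDKO over control) against mean signal of both arrays (log axis) for genes over the floor in both genotypes, with neuronal and broadly expressed members coloured, members beyond 0.3 in size named, and black lines for the median of all genes in 4 equal groups of signal; 6 genes lie beyond the plotted range. Sncb, Snap25, Dnm1 and Cplx1 lie low at high signal, where the median of all genes is -0.04.

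A scaling that follows signal left fewer members past the size counted. After quantile normalization and after lowess correction for signal, 4 members were at least 20% lower instead of 8, and the same 4 under both: Sncb, Pclo, Stx1a and the Stxbp2 bound. The share of all measured genes at least 20% lower was 8.33% after quantile normalization and 8.22% after lowess, so these counts of 31 members stood nearer the share. Cplx1, Snap25, Dnm1 and Syp were those that no longer passed, with lowess values of -0.30, -0.21, -0.24 and -0.31. In both settings 23 of the 31 members were still below 0.

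Further genes of vesicle release and recycling were taken from a list of 85 genes fixed by function, of which 48 had a probe set and 39 were measured. Of these 31 were below 0, 6 were at least 20% lower and 1 at least 25% higher, with a median log2 ratio of -0.14. The shares over all measured genes were 48.1%, 8.36% and 8.05%, and 12.8% of the brightest 1354 genes were at least 20% lower. Vti1b, an endosomal SNARE, gave 891 in PS cDKO and 1302 in control (-0.55). Pacsin1 (syndapin-1), a neuronal dynamin partner, gave 1187 in PS cDKO and 1605 in control (-0.44). Rabac1 (PRA1), which binds Rab3a and piccolo, gave 1356 in PS cDKO and 1744 in control (-0.36).

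Of the 5 measured subunits of the clathrin adaptor AP-2, which joins the vesicle coat to its cargo, 4 were below 0 and Ap2b1 alone above it. Ap2m1, the μ subunit of the AP-2 adaptor, gave 1109 in PS cDKO and 1445 in control (log2 ratio -0.35), whereas Ap2b1, the β subunit, gave 923 in PS cDKO and 680 in control (0.44). Snap47, a SNAP-25 relative, gave 1323 in PS cDKO and 1656 in control (-0.32). Cask, a presynaptic scaffold kinase, was the remaining gene at least 20% lower, with a bound of at least 1.30-fold (207 in PS cDKO, below the floor, and 301 in control).

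The cell type markers gave the following values, and their part in the members' values was not tested. Of 17 measured neuronal markers outside the release machinery 14 were below 0 and 5 at least 20% lower, with a median log2 ratio of -0.20 and a summed signal of 33356 in PS cDKO and 40536 in control. Over all measured genes the shares were 48.1% below 0 and 8.36% at least 20% lower. Thy1, a surface glycoprotein of projection neurons, was at -0.54 and the neurofilament Nefl at -0.47; Elavl4 was below the floor. The summed ratio of these markers, 0.823, was close to the 0.813 of the neuronal members. Bright probe sets weigh most in both sums.

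Microglial and astrocyte markers were mostly above 0, and oligodendrocyte markers were mixed. Over all 5885 measured genes, 3057 were above 0 and 48.1% were below it. Of 11 measured microglial markers 10 were above 0, with a median of 0.31 and a summed signal of 9277 in PS cDKO and 6366 in control; Aif1, Cd53, Fcer1g and Lyz2 were below the floor. C1qa and Ctss were the highest at 1.08 and 0.84. Of 10 measured astrocyte markers 7 were above 0, with a median of 0.19 and a summed signal of 17771 in PS cDKO and 14719 in control; Fgfr3 was below the floor. Gfap stood at 2.23 and Gja1 at 0.55. The Gja1 value averages the log2 ratios of 2 probe sets that did not give the same ratio. Their mean signals, 1001 in PS cDKO and 852 in control, differ by less than the 1.46-fold of that average. Of 7 measured oligodendrocyte markers 4 were below 0, with a median of -0.13 and a summed signal of 10585 in PS cDKO and 11609 in control; Mog and Cnp were below the floor. Mobp was at -0.44 and Cldn11 at -0.36, while the 3 markers above 0 reached up to 0.25.

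**Figure D4:**
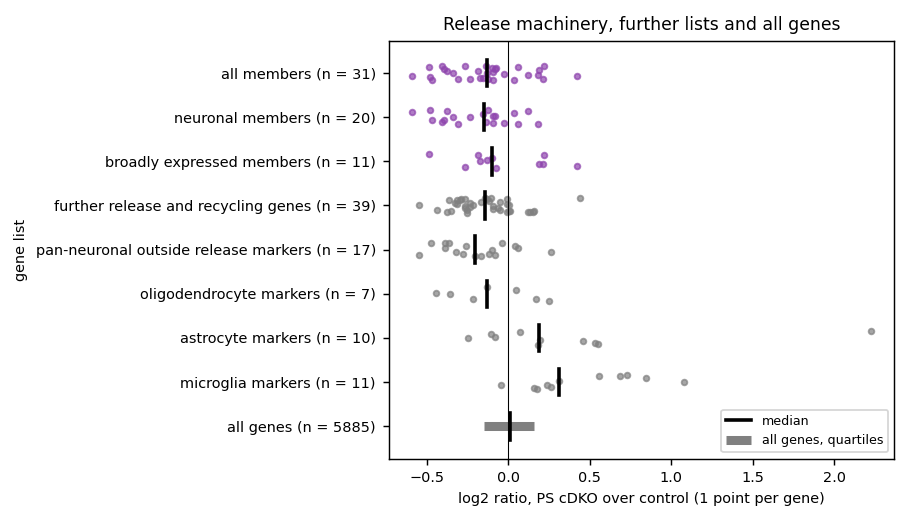
Log2 ratios (PS cDKO over control) of the members, of further release and recycling genes and of cell type markers, 1 point per gene with the list median as a black bar, and the quartiles of all 5885 measured genes in grey. The members' median of -0.13 lies beside those of further release genes (-0.14) and neuronal markers (-0.20), and the microglial median is 0.31.

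Repeat probe sets gave the only second reading of a member. With both over the floor in both genotypes, 4 members had 2 probe sets: Bin1, Dnm1, Napb and Vamp2. In Bin1 and Dnm1 both readings were below 0, and in Napb and Vamp2 they differed in sign. The differences between the readings were 0.11 in Bin1, 0.05 in Dnm1, 0.12 in Napb and 0.32 in Vamp2. Of the 8 members at least 20% lower, Dnm1 alone had 2 probe sets over the floor; the other 7 each rest on 1.

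**Figure D5:**
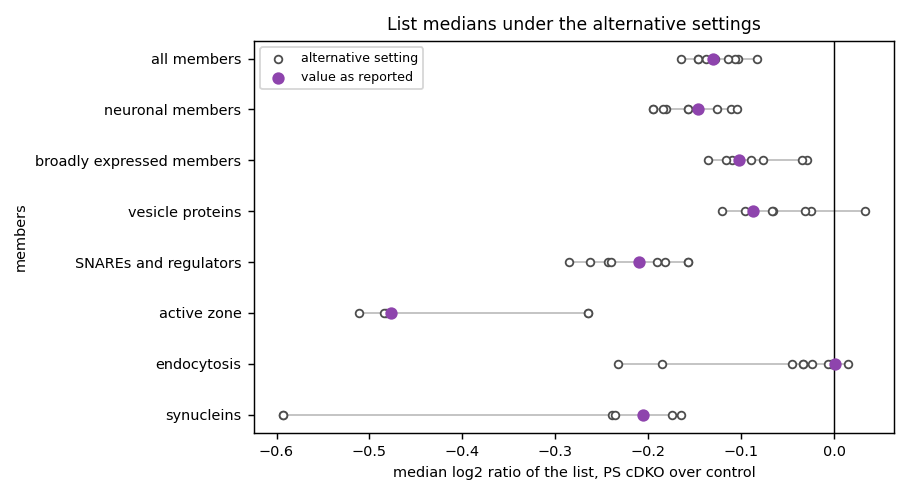
Median log2 ratio (PS cDKO over control) of the members and of each class under the reported setting (filled) and the alternatives (open), which include the mean in place of the median. The medians of SNAREs and regulators stay between -0.29 and -0.16, and those of vesicle proteins and endocytosis reach across 0.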

How the data were processed

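Total RNA of cerebral cortex was measured on 1 array for PS cDKO and 1 for control. The authors deposited 1 linear intensity per probe set; for software, background step and scaling, the labels and file hold no entry. Of the values, 18 PS cDKO and 13 control were negative. The deposited medians were 305 in PS cDKO and 300 in control. Gene symbols came from GEO's platform table, which may be outdated; 10829 of 12418 probe sets had 1 symbol. All 36 members with a probe set matched a gene ID in RefSeq (GRCm38.p6), used for names and promoters.

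Scaling set to 0 the median log2 ratio of probe sets in the upper part of each array's ranking (above its median), which added 0.034 to PS cDKO on the log2 scale. The floor was the 40th percentile of both arrays pooled. Above it lay 60.9% of PS cDKO and 59.1% of control probe sets, and 5414 genes were over it in both genotypes, with bounds for a further 471. A gene with bounds only took their mean. Scaling and counting were run on simulated data with changes larger than those of any member, in genes well above the floor. Changes of the members' size and signals near the floor were not tried.

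The members, classes, lists and the size counted were chosen with earlier results of these data known. All members were named, with up to 6 further release genes and 2 markers per list, those with the largest absolute log2 ratios over the floor in both genotypes; Cask, a bound, was named after its value was seen. The array number limits the precision. Python 3.11.15, numpy 2.4.6, pandas 2.3.3, statsmodels 0.14.6 and matplotlib 3.10.9 were used.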

Additional observations from a re-analysis of the deposited data

How the results depend on the processing

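No paired analysis was possible because there is 1 array for each genotype, and for the same reason no replicate could be dropped. Under the 3 other scalings the median log2 ratio of all genes lay between -0.02 and 0.01. The number of members at least 20% lower, 8, became 4 after quantile normalization and 4 after the lowess fit, where the correction follows signal. The share of all genes was 8.36% in the reported setting, 8.33% after quantile normalization and 8.22% after the lowess fit. The number lower was 1 at 1.5-fold, where 0.816% of all genes were, and 14 at 1.1-fold, for which no share over all genes was taken. As a guide to that smaller size, the quartiles of the log2 ratio over all measured genes were -0.15 and 0.16. The number at least 25% higher, 1, was 0 when the floor was raised to the 60th percentile, where 5.52% of all genes were. It was 3 with no floor (Rab3d, Stxbp3 and Syt4, the last 2 below the main floor), where 16.2% of all genes were. At 1.5-fold it was 0, where 1.12% of all genes were, and at 1.1-fold 5, again with no share over all genes. With no floor the median log2 ratio became -0.083 over all members, -0.029 over broadly expressed members, 0.034 over vesicle proteins, a change of sign, and -0.26 for the active zone, where Bsn entered; the active zone was also -0.26 with the 20th percentile as floor. The neuronal members had -0.20 without suffixed probe sets and -0.20 as a mean, and the broadly expressed members -0.034 as a mean. SNAREs and regulators had -0.29 with the brightest probe set. Endocytosis had -0.18 with the 60th percentile as floor and -0.23 without suffixed probe sets, and synucleins -0.59 under both, where Sncb alone was left. With other floors, the brightest probe set or no suffixed probe sets, other probe sets enter; with a mean only the summary differs. Other causes were not tested. Of the other results for lists and counts, 81 moved by less than the SD divided by the root of the list's size or by less than 1.5 times. Among single members, 263 alternative values moved by less than 0.21 and 7 by more, all of them in Rab3a, Syt3, Vamp1 and Vamp4 with lower floors. None of the members past the size counted changed sign. Where a member has 1 unsuffixed probe set above every floor, only the scalings could move its value.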

Other observations

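Cplx2 and Sncb, both with low log2 ratios, lie close together on mouse chromosome 13 in the RefSeq gene order, with 11 protein-coding genes between them. This was seen after the values. Of those between, 4 were measured (Cltb, Higd2a, Rnf44 and 4833439L19Rik), and all 4 were below 0, with log2 ratios between -0.12 and -0.07, less than the 0.21 SD of a probe set. Dnm2 and Rab3d, both with ratios above 0, are neighbours on chromosome 9 with 11 coding genes between them, of which 2 were measured, Smarca4 and Carm1, with values between -0.28 and 0.03. A further pair, Syt4 (below the floor) and Bin1 (-0.18), lies on chromosome 18 with 13 coding genes between. Of these 4 were measured and 2 were below 0, with values between -0.19 and 0.15.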
